A study of Mus musculus with 2 samples.

Results

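The genes described are 9 members of the MHC class I antigen presentation system in mouse tumour-infiltrating cells: the heavy chains H2-K1, H2-D1, H2-Q4, H2-Q6, H2-Q7, H2-T22 and H2-T23, the light chain gene B2m, and Nlrc5, which encodes an activator of class I transcription. They were chosen by name, and all 9 were among the 22483 gene symbols listed for both libraries, of 27188 listed for either. Their raw counts of unique molecular identifiers (UMIs, the tags that mark single captured RNA molecules) were read in T, B, natural killer (NK), myeloid and Sparc-led cells of each library. MC38, a colon carcinoma line of the mouse, had been grown under the skin of C57BL/6 mice, and the cells came from those tumours. In the PBM group, photobiomodulation, a treatment with pulsed light, was given every day from day 7, and tumours were taken on day 14. The Control group was taken on the same day, and its labels name no treatment. Cells positive for CD45, the common leukocyte antigen, were sorted and pooled within each condition, and each group is 1 library. The genotype is labelled WT in both, without saying whether of mice or line, and how many mice were pooled is not stated in the sources used here. Both libraries are labelled tumor cells, but leukocyte markers defined all clusters but the Sparc-led one.

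Class I heavy chains fold together with beta-2-microglobulin, the product of B2m, and show peptides from inside the cell to CD8 T cells. H2-K1 and H2-D1 encode the classical, highly polymorphic chains, while the H2-Q and H2-T genes encode nonclassical chains: Q7 belongs to the Qa-2 family, and T23 encodes Qa-1, whose complex with peptide is read by the NKG2A and NKG2C receptors of NK and T cells. Nlrc5 joins a complex of RFX, NF-Y and CREB/ATF factors on class I promoters, which also carry sites for NF-kB and for interferon-regulated factors, so interferon gamma is a strong inducer of the pathway.

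Promoter sequence is shown for 5 members because the balance between these genes differed between the libraries: H2-K1, H2-D1 and H2-Q7, and then H2-T23 and B2m. The sequences come from RefSeq on build GRCm38.p6, which corresponds to the mm10 build of the submitters' processing notes, run 5′ to 3′ on the gene's strand and end at or before the annotated start. Capitals mark matches on either strand to 4 short motifs: GGGATTCCC (a kappa B site), TTTCNNTTC (an interferon-response type repeat), TGNTGAC (the core of the X2 box) and CCAAT (the Y box, which reads ATTGG on the other strand). The motifs did not overlap each other in these windows. The windows lie at chr17:34000354-34000462 on the minus strand for H2-K1, at chr17:35262919-35263050 on the plus strand for H2-D1, at chr17:35439018-35439148 on the plus strand for H2-Q7, at chr17:36032709-36032758 on the minus strand for H2-T23 and at chr2:122147601-122147643 on the plus strand for B2m.
H2-K1: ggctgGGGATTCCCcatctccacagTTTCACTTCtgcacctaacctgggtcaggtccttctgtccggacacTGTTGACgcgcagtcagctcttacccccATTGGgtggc
H2-D1: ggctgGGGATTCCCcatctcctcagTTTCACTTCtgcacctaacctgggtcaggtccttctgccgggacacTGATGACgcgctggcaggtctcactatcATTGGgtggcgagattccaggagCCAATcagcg
H2-Q7: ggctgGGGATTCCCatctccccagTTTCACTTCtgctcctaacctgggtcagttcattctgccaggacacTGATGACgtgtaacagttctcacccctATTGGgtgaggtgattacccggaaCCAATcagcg
H2-T23: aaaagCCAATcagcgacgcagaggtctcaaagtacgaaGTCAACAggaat
B2m: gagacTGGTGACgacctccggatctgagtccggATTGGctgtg
H2-K1, H2-D1 and H2-Q7 held all 4 motifs in the same order, and so did H2-Q6. Of 32851 promoter windows of 300 bases in the RefSeq table, 0.353% held the kappa B letters, 7.52% the TTTCNNTTC letters, 14.1% TGNTGAC and 37.4% CCAAT. Only 5 windows, 0.0152% of the total, held all 4, and these were 2 windows of H2-K1 and 1 each of H2-D1, H2-Q6 and H2-Q7. These shares counted matches over all 300 bases, while matches of single members were read upstream of the start only. They depend on the exact letters chosen and are not a test. H2-Q4 held 3 of the 4, all but the kappa B letters. H2-T22, H2-T23 and B2m matched only the TGNTGAC and CCAAT letters of the 4. The H2-T22 window also held TTTCACTTTC, a close spelling with an added T that TTTCNNTTC does not match. Lack of a match is thus not lack of an interferon-response type site. In H2-T23 the TGNTGAC match was on the opposite strand and lay nearer the start than the CCAAT match. Nlrc5 was not among the matched entries. A match of letters is not evidence of binding.

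All 7 heavy-chain genes lie on chromosome 17 and were counted by symbol in the files. Their transcripts share sequence, so the counting could move reads between them. Of all 50-base stretches in the annotated coding transcripts, those found in another class I gene made up 6.87% for H2-K1, 11.8% for H2-D1, 16.5% for H2-Q4, 20.6% for H2-T23, 27.0% for H2-Q6, 31.9% for H2-Q7 and 43.7% for H2-T22. The largest single overlap was between H2-T22 and H2-T10, at 37.5% of the H2-T22 stretches. B2m and Nlrc5 shared none with the class I genes. Levels of H2-Q6, H2-Q7 and H2-T22 are therefore the least certain as single genes.

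The PBM library held 13962 barcodes with a median of 5143.5 UMIs, against 11238 barcodes with a median of 5621.5 in the Control library. After filters, 13062 PBM and 11099 Control cells were kept, and clusters were named from marker genes, with the 9 genes left out of the clustering. Naming is a reconstruction, as no annotation of the cells was used. T cell-like cells numbered 4278 in PBM and 2592 in Control, B cell-like cells 5616 and 206, NK cell-like cells 203 and 1327, and monocyte/macrophage-like cells 195 and 5203. A further cluster led by Dapl1, Ccr9 and Cd8b1, with 2645 PBM and 19 Control cells, carried T cell markers but stayed unnamed because Ccr9 is also on the plasmacytoid dendritic list. Its heavy chains stood at 4836 CPM in PBM. Levels are given as UMIs of a gene per 1000000 UMIs of the same cells (CPM). Each group being a single library, neither a replicate error nor a test can be given. All intervals are 95% intervals that cover counting error only, and treatment, mouse pool and library cannot be told apart. A total of 1991 barcode names occurred in both libraries. These names are running cell numbers, not nucleotide barcodes, so a shared name does not mark a shared cell.

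Class I was highest in the Foxp3-led T cells of both libraries, followed by PBM NK cells and Control dendritic-like cells, and low in Sparc-led cells and most Control macrophage-like clusters. In the Control library the summed heavy chains stood at 7309 CPM in dendritic-like cells, 6270 in T cell-like cells, 5389 in NK cell-like cells, 5226 in neutrophil-like cells, 3942 in B cell-like cells, 3305 in monocyte/macrophage-like cells and 2584 in Sparc-led cells. The intervals of NK cell-like (5342 to 5435) and neutrophil-like cells (4911 to 5555) overlapped, and no other neighbours in this order did. In the PBM library the order was NK cell-like cells at 7540 CPM, T cell-like cells at 5143, B cell-like cells at 4797 and monocyte/macrophage-like cells at 4695. There the intervals of B cell-like (4771 to 4822) and monocyte/macrophage-like cells (4530 to 4864) overlapped. NK cells thus led the classes ranked in PBM. Dendritic-like, neutrophil-like and Sparc-led cells, with 4, 12 and 7 PBM cells, were too few to rank there. In Control, NK cells stood below dendritic-like and T cell-like cells.

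Single clusters spread more widely than classes. The cluster led by Foxp3, Tnfrsf4 and Il2ra, genes of regulatory T cells, held the highest sums, 8137 CPM in PBM and 9560 CPM in Control. Among Control clusters with macrophage markers, the Thbs1-led cluster, with Spp1 and Arg1 among its leading genes, held 2984 CPM and the Ccl8-led cluster, with Folr2, 2892 CPM. The lowest was the Gm10800-led cluster at 2347 CPM, whose cells were shallow and had mitochondrial genes among the leading ones. The Ly6i-led cluster, in which the interferon-induced genes Cxcl9 and Nos2 were leading, stood at 5438 CPM in PBM and 4710 CPM in Control. The Gzmg-led NK cluster, found in Control, held 3492 CPM, below the 5819 CPM of the Klra8-led NK cells of the same library.

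**Figure D1:**
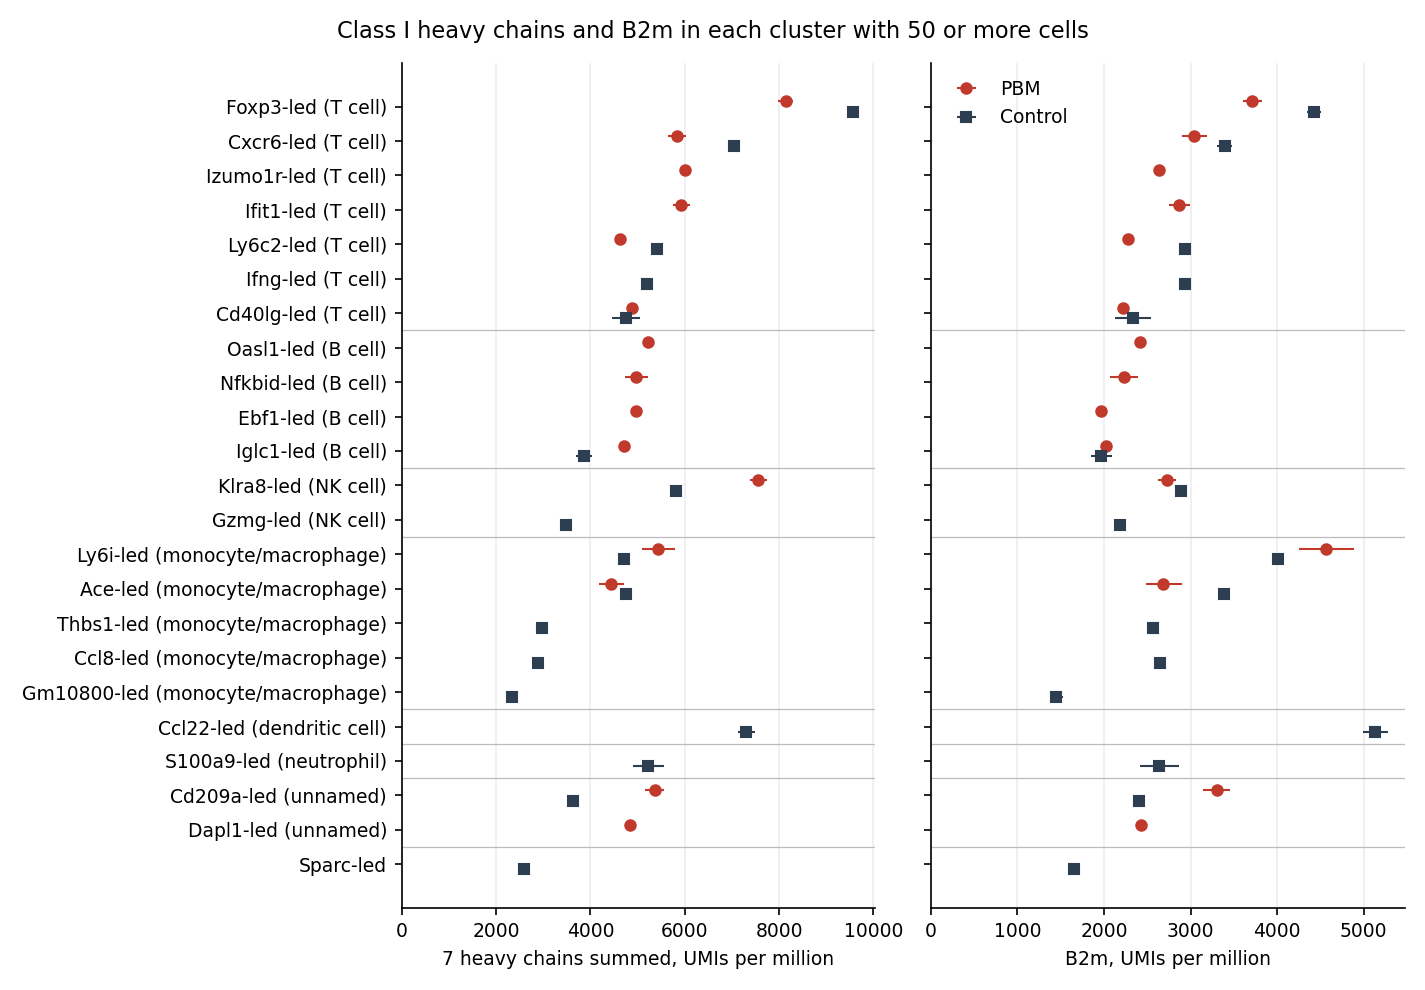
Summed heavy-chain level (left) and B2m level (right) in CPM for every cluster with at least 50 cells in a library, PBM as circles above and Control as squares below, with 95% counting intervals. The Foxp3-led T cells reach 8137 CPM in PBM and 9560 CPM in Control, while the Sparc-led cells of the Control library stand at 2584 CPM.

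Between the libraries, the summed heavy chains were lower in PBM T cells and higher in the PBM cells of the other 3 classes. Log2 ratios of PBM over Control were -0.29 in T cell-like cells (-0.30 to -0.27), 0.28 in B cell-like cells (0.23 to 0.34), 0.48 in NK cell-like cells (0.45 to 0.52) and 0.51 in monocyte/macrophage-like cells (0.45 to 0.56). None of these sums passed 1.5-fold. The T cell difference depended on what the UMIs were divided by. Ribosomal protein genes took 37.4% of UMIs in PBM T cell-like cells against 26.1% in Control ones, and with mitochondrial and ribosomal genes left out of the total the T cell ratio was -0.049. It was -0.54 when the Ifng-led cluster, which held 1079 of the Control T cells and 17 of the PBM ones, was left out.

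H2-K1, a classical heavy chain, reached 2375 CPM in PBM T cell-like cells against 2700 CPM in Control ones, a log2 ratio of -0.19 (-0.20 to -0.17). H2-K1 in B cell-like cells had 2144 CPM in PBM against 1674 CPM in Control (0.36). Among NK cell-like cells it had 3168 CPM in PBM against 2310 CPM in Control (0.46). The T cell value changed sign under 2 of 13 other settings, with a highest value of 0.05, while the B and NK values were higher in PBM under all 11. H2-K1 in monocyte/macrophage-like cells had 1939 CPM in PBM against 1316 CPM in Control (0.56), the widest gap of the 4 classes for this gene.

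H2-D1, the other classical chain, had 1595 CPM in PBM T cell-like cells and 2130 CPM in Control ones, a log2 ratio of -0.42 (-0.44 to -0.40). Among B cell-like cells it had 1546 CPM in PBM and 1574 CPM in Control, a ratio of -0.03 whose interval spans 0 (-0.12 to 0.07). H2-D1 thus parted from H2-K1 in B cells, where H2-K1 was higher in PBM. H2-D1 in NK cell-like cells had 2546 CPM in PBM and 1972 CPM in Control (0.37). Among monocyte/macrophage-like cells it had 1876 CPM in PBM and 1540 CPM in Control (0.28).

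Among the 9 genes, 0 were higher and 1 was lower past 1.5-fold in PBM T cell-like cells, where 12.8% of all measured genes were higher and 26.2% lower past that fold. In B cell-like cells 5 of 9 were higher and 0 lower, against 18.4% and 24.5% of all genes. In NK cell-like cells 4 of 9 were higher and 0 lower, against 19.3% and 19.1%. In monocyte/macrophage-like cells 4 of 9 were higher and 0 lower, against 27.2% and 29.1%. The median log2 ratio of the 9 was -0.42 in T, 0.62 in B, 0.46 in NK and 0.56 in monocyte/macrophage-like cells, beside -0.14, -0.12, 0.07 and -0.01 over all measured genes of the same classes. The members past the fold were nonclassical heavy chains in every case.

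**Figure D2:**
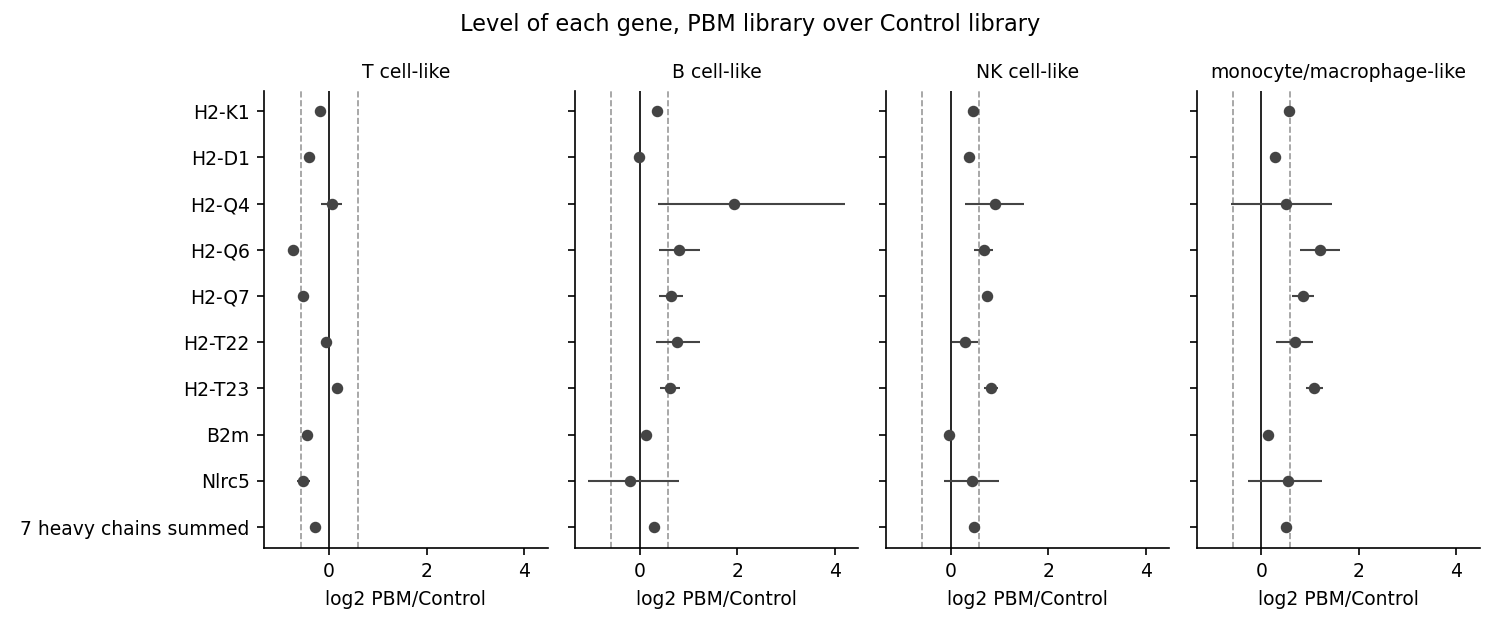
Log2 ratio of PBM over Control for each of the 9 genes and the heavy-chain sum in 4 cell classes, with 95% counting intervals. Dashed lines mark 1.5-fold. Points in T cell-like cells lie mostly left of 0, with H2-T23 at 0.16, and those of the other classes mostly right of it, with H2-Q6 reaching 1.21 in monocyte/macrophage-like cells.

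H2-Q7, of the Qa-2 family, had 541 CPM in PBM T cell-like cells and 783 CPM in Control ones (log2 ratio -0.53, -0.57 to -0.50). NK cell-like cells had 968 CPM in PBM and 575 CPM in Control (0.75, 0.65 to 0.85). H2-Q7 took the opposite direction in T and NK cells of the same pair of libraries. B cell-like cells had 351 CPM in PBM and 227 CPM in Control (0.63), and in monocyte/macrophage-like cells 258 CPM in PBM and 143 CPM in Control (0.85).

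H2-Q6, its neighbour on the chromosome, had 85.7 CPM in PBM T cell-like cells and 143 CPM in Control ones (-0.74, -0.83 to -0.66), the only member past 1.5-fold in that class. H2-Q6 in monocyte/macrophage-like cells had 80.8 CPM in PBM and 34.9 CPM in Control (1.21, 0.79 to 1.60). In NK cell-like cells it had 249 CPM in PBM and 156 CPM in Control (0.68), and in B cell-like cells 139 CPM in PBM and 79.9 CPM in Control (0.80). H2-Q4, a further Q-region gene, was sparse everywhere: it had 18.2 CPM in PBM and 17.5 CPM in Control T cell-like cells, and its B cell ratio rests on 3 Control UMIs (1.93, 0.38 to 4.22).

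H2-T23, which encodes Qa-1, was the only member whose interval lay above 0 in all 4 classes. In T cell-like cells it had 383 CPM in PBM and 343 CPM in Control (0.16, 0.11 to 0.21). In B cell-like cells it had 479 CPM in PBM and 312 CPM in Control (0.62). H2-T23 was past 1.5-fold in the B, NK and myeloid classes. Among NK cell-like cells it had 445 CPM in PBM and 250.2 CPM in Control (0.83), and in monocyte/macrophage-like cells 436 CPM in PBM and 205 CPM in Control (1.09). Under the 13 other settings the T cell value ran from -0.054 to 0.40 and kept its direction in 12. Of its 50-base stretches, 12.9% were also found in H2-T-ps. H2-T22, whose product is a ligand of gamma delta T cells, had 145 CPM in PBM and 152 CPM in Control T cell-like cells (-0.07), and 119 CPM in PBM and 70.3 CPM in Control B cell-like cells (0.76).

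Ratios between class I genes in the same cells do not depend on the total by which UMIs are divided. The count of H2-T23 UMIs per 100 H2-K1 UMIs was 16.1 in PBM and 12.7 in Control T cell-like cells (log2 ratio 0.34, 0.29 to 0.39). It was 22.3 in PBM and 18.6 in Control B cell-like cells (0.26, 0.04 to 0.48), and 14.1 in PBM and 10.8 in Control NK cell-like cells (0.38, 0.22 to 0.53). In monocyte/macrophage-like cells it was 22.5 in PBM and 15.6 in Control (0.53, 0.34 to 0.72). This ratio was higher in PBM in all 4 classes and under every other setting tried, where it ran from 0.32 to 0.43 in T, 0.09 to 0.36 in B, 0.35 to 0.45 in NK and 0.30 to 0.63 in monocyte/macrophage-like cells. It did not pass 1.5-fold in any class under the main settings, and did so in monocyte/macrophage-like cells with free RNA subtracted. Over the whole libraries it was 18.4 in PBM and 14.5 in Control, and the part of free RNA in the class values was not tested beyond the subtraction given next. With an estimate of free RNA from other cells subtracted, the log2 ratios were 0.32, 0.27, 0.35 and 0.63 in T, B, NK and monocyte/macrophage-like cells.

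The balance of the classical chains also differed. The count of H2-D1 UMIs per 100 H2-K1 UMIs was 67.1 in PBM and 78.9 in Control T cell-like cells (-0.23, -0.26 to -0.21), and 72.1 in PBM and 94.1 in Control B cell-like cells (-0.38, -0.51 to -0.26). It was 80.4 in PBM and 85.4 in Control NK cell-like cells (-0.09), and 96.8 in PBM and 117 in Control monocyte/macrophage-like cells (-0.27). Over the whole libraries it was 68.6 in PBM and 103 in Control. With the estimate of shared RNA subtracted, the values moved to -0.20 in T, -0.35 in B, -0.03 in NK and -0.13 in monocyte/macrophage-like cells. The NK value reached 0.01 under another setting.

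Within each library, monocyte/macrophage-like clusters with at least 50 cells held more H2-D1 per H2-K1 than the T, B and NK clusters did. In PBM the Ly6i-led and Ace-led clusters had 91.4 and 113.5 H2-D1 UMIs per 100 H2-K1 UMIs, against 80.6 at most in a T, B or NK cluster. In Control the monocyte/macrophage-like clusters ran from 107 to 152, against 97.1 at most in a T, B or NK cluster. Pooled over both libraries the ranges of B clusters (71.1 to 97.1) and monocyte/macrophage-like clusters (91.4 to 152) overlapped. Control dendritic-like cells, at 90.8, lay below the Control Iglc1-led B cells, while neutrophil-like cells reached 172 and Sparc-led cells 124. H2-Q7 per 100 H2-K1 UMIs, pooled over both libraries, ran from 20.2 to 30.01 in T clusters, 12.6 to 30.6 in NK clusters, 13.4 to 19.3 in B clusters and 7.68 to 15.6 in monocyte/macrophage-like clusters. The B and NK ranges overlapped that of the monocyte/macrophage-like clusters, and the T range did not. Dendritic-like cells, at 29.2, lay in the T range, and Sparc-led cells had 3.39. These are ranges over clusters, which share libraries and are not replicates.

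Heavy-chain UMIs per 100 B2m UMIs were 278 in PBM and 195 in Control NK cell-like cells (0.51, 0.44 to 0.58), the widest gap of the 4 classes. They were 152 in PBM and 117 in Control monocyte/macrophage-like cells (0.38), 232 in PBM and 207 in Control B cell-like cells (0.17), and 215 in PBM and 192 in Control T cell-like cells (0.17). Over the whole libraries the ratio was 216 in PBM and 146 in Control. With the estimate of shared RNA subtracted, it was 0.12 in T, 0.10 in B, 0.52 in NK and 0.27 in monocyte/macrophage-like cells on the log2 scale.

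**Figure D3:**
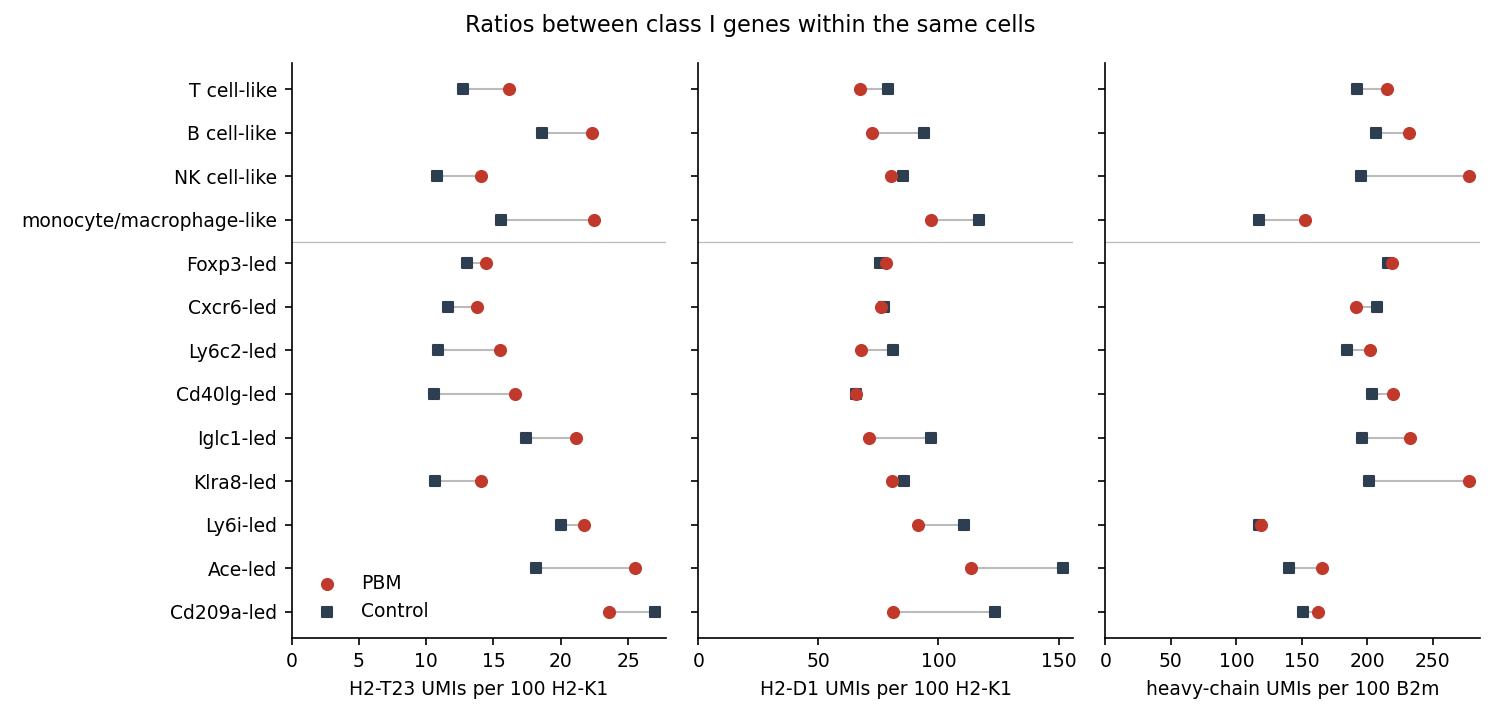
UMIs of H2-T23 and of H2-D1 per 100 H2-K1 UMIs, and heavy-chain UMIs per 100 B2m UMIs, in 4 classes (above the line) and in 9 clusters with at least 50 cells in both libraries (below it), PBM as circles and Control as squares. H2-T23 lies further right in PBM in every class and in 8 of 9 clusters, and H2-D1 further left in every class and in 8 of 9 clusters.

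A class can hold different clusters in each library, and 9 clusters had at least 50 cells in both. In T cells most Control cells lay in the Ifng-led and Foxp3-led clusters, and most PBM cells in the Cd40lg-led cluster (2559 cells). Of the T clusters, the heavy-chain sum was lower in PBM in the Ly6c2-led cluster (4621 CPM in PBM, 5418 CPM in Control, -0.23), the Foxp3-led cluster (8137 and 9560, -0.23) and the Cxcr6-led cluster (5832 and 7056, -0.27). In the Cd40lg-led cluster it was 4874 CPM in PBM and 4750 CPM in Control, a ratio of 0.04 whose interval spans 0 (-0.05 to 0.13). No T cluster gave a lower sum in PBM past 1.5-fold. Cells of the Ly6c2-led cluster differed between libraries, with Cd8a at 240 CPM in PBM and 128 CPM in Control. At Leiden resolution 2.0 a cluster led by Gzmm and Ly6c2 had 707 PBM and 11 Control cells. Another, led by Klra1 and Klra7, had 9 PBM and 448 Control cells. The part of such makeup in the Ly6c2-led ratio was not tested.

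Of the monocyte/macrophage-like clusters, 2 could be compared between libraries, and both gave a smaller heavy-chain ratio than the class. Control monocyte/macrophage-like cells were mainly of the Thbs1-led (2379 cells), Ly6i-led (978) and Ccl8-led (886) clusters, and PBM ones of the Ace-led (70 cells) and Ly6i-led (52) clusters. In the Ly6i-led cluster the heavy-chain ratio was 0.21 (0.11 to 0.30). In the Ace-led cluster, with genes of patrolling monocytes such as Ace and Treml4, it was -0.10 (-0.19 to -0.01), with 4442 CPM in PBM and 4749 CPM in Control, where the class as a whole gave 0.51. H2-T23 was higher in PBM in both, at 492 CPM against 374 CPM in Control in the Ly6i-led cluster (0.40) and 439 CPM against 303 CPM in Control in the Ace-led cluster (0.53). The unnamed Cd209a-led cluster gave 5362 CPM in PBM and 3627 CPM in Control (0.56), with H2-Q7 at 550.1 CPM in PBM and 162 CPM in Control (1.76). It held more than 1 kind of cell: at Leiden resolution 2.0 a cluster led by the plasmacytoid dendritic gene Siglech had 31 PBM and 41 Control cells and a Cd209a-led one 71 PBM and 281 Control cells, so its makeup differed between libraries, and the part of that in its ratios was not tested.

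For NK and B cells only a single cluster each could be compared, and it held most of its class. The Klra8-led cluster held 202 of 203 PBM and 1193 of 1327 Control NK cell-like cells. The Iglc1-led cluster held 4342 of 5616 PBM and 178 of 206 Control B cell-like cells. Their directions are thus not separate from those of the classes. At Leiden resolution 2.0 an Iglc1-led cluster had 1580 PBM and 157 Control cells and a Cd79a-led one 1515 and 11. The part of makeup in the B ratio was not tested. In the Klra8-led NK cluster the sum was 7564 CPM in PBM and 5819 CPM in Control (0.38), and in the Iglc1-led B cluster 4710 CPM in PBM and 3856 CPM in Control (0.29). Over the 9 clusters, H2-T23 per H2-K1 was higher in PBM in 8, with 7 intervals above 0. The exception was the Cd209a-led cluster, with 23.6 in PBM and 27.0 in Control per 100 H2-K1 UMIs. H2-D1 per H2-K1 was lower in PBM in 8 of the 9, with 6 intervals below 0, and was 78.2 in PBM and 75.8 in Control in the Foxp3-led cluster. Heavy chains per B2m were higher in PBM in 8 of the 9, with 5 intervals above 0, and lower in the Cxcr6-led cluster (192 in PBM, 208 in Control).

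**Figure D4:**
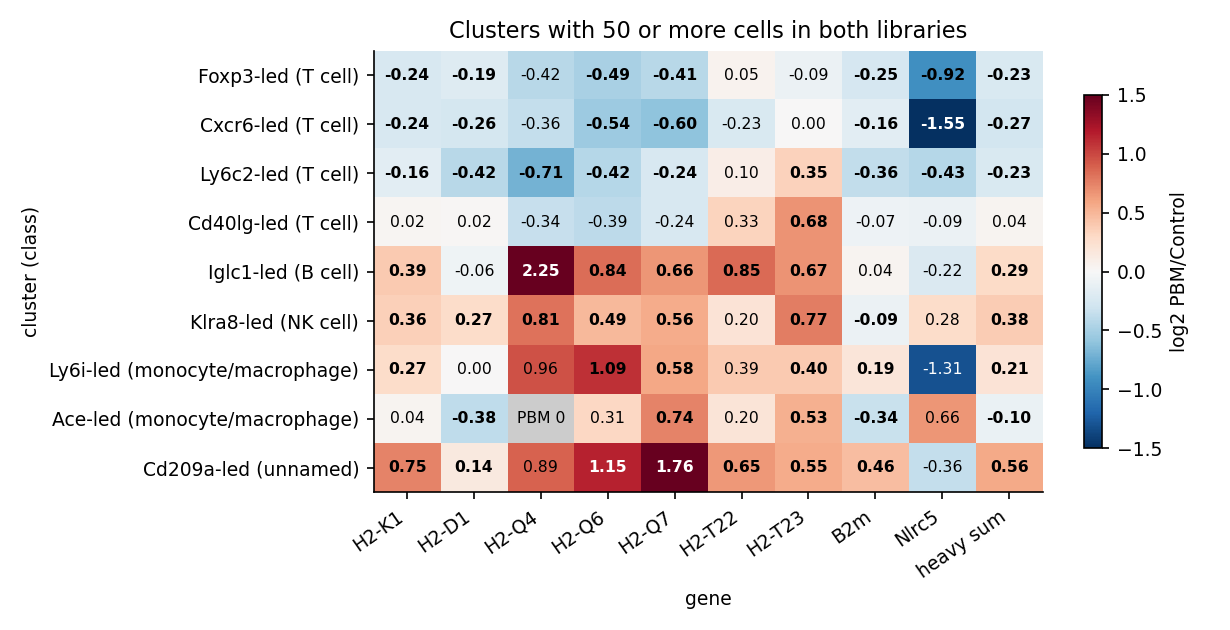
Log2 ratio of PBM over Control for each gene (columns) in the 9 clusters with at least 50 cells in both libraries (rows), coloured from -1.5 (blue) to 1.5 (red); bold values have 95% counting intervals that leave out 0, and the grey cell had 0 PBM UMIs. The upper 4 rows are T clusters, where H2-T23 runs from -0.09 to 0.68 while H2-Q6 and H2-Q7 lie below 0.

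T cells were also split by gates on single transcripts, applied to all clusters whose leading class was T cell. In the CD8 gate, with 3655 PBM and 1253 Control cells, the heavy-chain sum was 4859 CPM in PBM and 5252 CPM in Control (-0.11). Without mitochondrial and ribosomal UMIs in the total it was 8149 in PBM and 7243 in Control, so the direction turned. In the CD4 gate it was 5160 CPM in PBM and 7022 CPM in Control (-0.44), and in the Foxp3 gate 6126 CPM in PBM and 8898 CPM in Control (-0.54). Both kept their direction with that total, at 8292 in PBM and 9379 in Control for CD4 and 9099 in PBM and 11273 in Control for Foxp3. In the Foxp3 gate 5 of the 9 genes were lower past 1.5-fold, in the CD4 gate 2 and in the CD8 gate 0, against 23.2%, 25% and 28.4% of all measured genes in the same gates. Each gate drew on different clusters in each library. Of the 515 cells in the Foxp3 gate of either library, 258 PBM and 0 Control cells lay in the Izumo1r-led cluster, and 110 PBM and 462 Control cells in the Foxp3-led cluster. Most CD8-gate cells lay in the Dapl1-led cluster in PBM (2439 cells) and in the Ifng-led cluster in Control (994). Most CD4-gate cells lay in the Cd40lg-led cluster in PBM (777) and in the Cxcr6-led cluster in Control (229). The Foxp3-led cluster, which had enough cells in both libraries, gave -0.23 where the Foxp3 gate gave -0.54, and the Izumo1r-led cells of PBM stood at 6012 CPM.

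Clusters led by genes that interferon induces were seen in PBM, and each was set against the largest PBM cluster of its named class. The Ifit1-led T cluster, with 117 PBM cells and Ifit3 at 559 CPM, held 5930 CPM of heavy chains, against 4874 CPM in the PBM Cd40lg-led cells. It had H2-T22 at 294 CPM and H2-T23 at 615 CPM, where the PBM Cd40lg-led cells had 139 CPM and 382 CPM. Among other PBM T clusters the heavy-chain sum was 5832 CPM in the Cxcr6-led, 6012 CPM in the Izumo1r-led and 8137 CPM in the Foxp3-led cluster, so the interferon-led T cells were not the highest. The Oasl1-led B cluster, with Ifit3 at 233 CPM, held 5222 CPM of heavy chains, against 4710 CPM in the PBM Iglc1-led cells, and H2-T23 at 595 CPM against 449.9 CPM. Both clusters came from the same library, so these values compare cells within it.

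B2m, the shared light chain, was highest in dendritic-like cells, at 5136 CPM in Control, and lowest by class in Sparc-led cells, at 1650 CPM in Control. Between libraries it had 2388 CPM in PBM and 3267 CPM in Control T cell-like cells (-0.45). NK cell-like cells had 2715 CPM in PBM and 2763 CPM in Control, a ratio of -0.03 whose interval spans 0 (-0.08 to 0.03), beside 0.48 for the heavy chains. Among B cell-like cells it had 2068 CPM in PBM and 1908 CPM in Control (0.12), and in monocyte/macrophage-like cells 3086 CPM in PBM and 2824 CPM in Control (0.13). The monocyte/macrophage-like ratio kept its direction under 8 of 11 other settings. It was 0.19 in the Ly6i-led cluster (0.09 to 0.29) and -0.34 in the Ace-led cluster (-0.45 to -0.22). B2m stayed closer to 0 than the heavy chains in all 3 classes in which the heavy chains were higher.

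Nlrc5, the class I transactivator, was sparse, with 1033 UMIs in PBM and 832 UMIs in Control T cell-like cells. It had 36.9 CPM in PBM and 53.2 CPM in Control T cell-like cells (-0.53, -0.66 to -0.40). Its highest levels were 68.2 CPM in the PBM Ifit1-led cluster and 65.9 CPM in the Control Foxp3-led cluster, where PBM had 34.8 CPM (-0.92). Both highest levels were in T clusters. Nlrc5 in B cell-like cells had 15.2 CPM in PBM and 17.6 CPM in Control, in NK cell-like cells 31.9 CPM in PBM and 23.4 CPM in Control, and in monocyte/macrophage-like cells 24.4 CPM in PBM and 16.8 CPM in Control. In these 3 classes the intervals of the ratio spanned 0, so a difference was not detectable at this depth. Sparc-led cells of the Control library had 11.6 CPM.

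The spread between cells was read after each cell had been thinned to 1000 UMIs. The median cell of the Foxp3 gate had 6 heavy-chain UMIs in PBM and 10 in Control, and the median NK cell-like cell 7 in PBM and 5 in Control. B cell-like cells had a median of 5 in PBM and 3 in Control, and monocyte/macrophage-like cells 4 in PBM and 3 in Control. The interquartile ranges overlapped between libraries in each of these groups. Cells with 0 heavy-chain UMIs made up 0.958% of PBM and 1.04% of Control T cell-like cells, 3.59% of PBM and 5.92% of Control monocyte/macrophage-like cells, and 17.2% of Control Sparc-led cells.

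**Figure D5:**
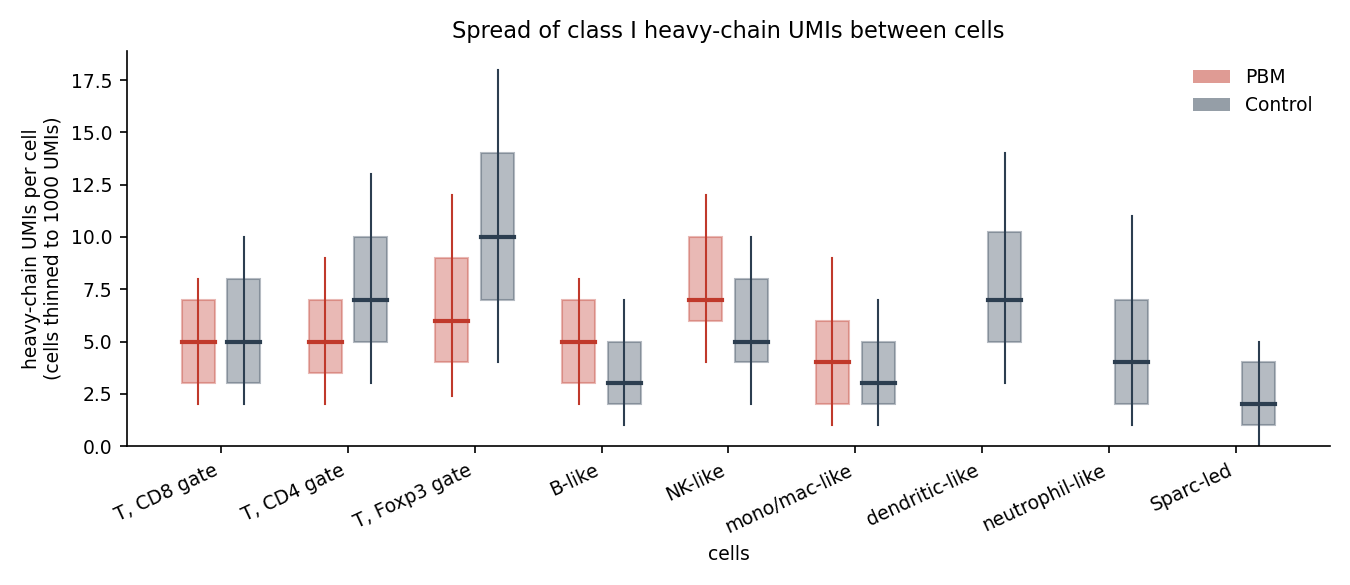
Heavy-chain UMIs per cell after thinning to 1000 UMIs, for PBM (left of each pair) and Control: thick lines are medians, boxes run from the 25th to the 75th percentile and whiskers from the 10th to the 90th. The Foxp3 gate has medians of 6 in PBM and 10 in Control, and the Sparc-led cells of Control a median of 2.

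The Sparc-led cells could be described in 1 library only, with 1212 Control cells and 7 PBM cells. They were led by Sparc (1604 CPM), Cald1 and Col1a2 (210 CPM), genes of matrix and contractile cells, and had Ptprc, which encodes CD45, at 28.5 CPM, against 688 CPM in Control T cell-like cells. Of 6 epithelial markers, Krt18, Cldn4 and Cldn7 had 0 UMIs and the sum of all 6 was 0.721 CPM. Whether they are tumour or stromal cells was not tested. H2-K1 stood at 1029 CPM and H2-D1 at 1277 CPM, while H2-Q6 and H2-Q7 were at 6.49 CPM and 34.9 CPM, below the 34.9 CPM and 143 CPM of Control monocyte/macrophage-like cells. Psmb8, an immunoproteasome subunit, had 193 CPM, against 452 CPM in those myeloid cells. Macrophage markers summed to 927 CPM in the Sparc-led cells and 15348 CPM in the myeloid cells, and the part of free RNA in these levels was not tested.

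Markers of other cell types moved with the libraries. Macrophage markers, all 10 of which had UMIs, summed to 47.5 CPM in PBM and 1255 CPM in Control T cell-like cells, and B cell markers, 8 of 8, to 596 CPM in PBM and 25.2 CPM in Control ones. In monocyte/macrophage-like cells T cell markers summed to 961 CPM in PBM and 149 CPM in Control, and B cell markers to 1418 CPM in PBM and 15.1 CPM in Control. T cell markers in NK cell-like cells summed to 1213 CPM in PBM and 557 CPM in Control, and B cell markers to 616 CPM in PBM and 20.3 CPM in Control. In B cell-like cells macrophage markers summed to 24.5 CPM in PBM and 1017 CPM in Control. The share of UMIs from other cells, estimated from such markers, was 17.7% in PBM and 13.7% in Control T cell-like cells, 15.2% and 12.3% in B, 17.8% and 11.7% in NK, and 27.4% and 14.4% in monocyte/macrophage-like cells. With that share subtracted, the heavy-chain ratio was -0.36 in T, 0.27 in B, 0.53 in NK and 0.52 in monocyte/macrophage-like cells.

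Partner genes were read as lists, counted past 1.5-fold, and the shares of all genes past that fold are those given above. Of 10 peptide loading genes, 0 were higher and 5 lower in PBM T cell-like cells, with a median log2 ratio of -0.58 beside -0.14 over all genes. Calr, a chaperone of the loading complex, had 179 CPM in PBM and 313 CPM in Control T cell-like cells (-0.81), and Tap2, a subunit of the peptide transporter, 116 CPM in PBM and 195 CPM in Control (-0.75). The T class held different clusters in each library, and ribosomal genes took a larger share of its PBM UMIs, as given above. Their part in these values was not tested. In NK cell-like cells 1 was higher and 3 were lower, with the chaperone Canx at 96.6 CPM in PBM and 168 CPM in Control (-0.80). In monocyte/macrophage-like cells 2 were higher and 2 lower: Tap1 had 180.0 CPM in PBM and 99.9 CPM in Control (0.85), while Calr had 293 CPM in PBM and 501 CPM in Control (-0.78). Tap1 in the Ly6i-led cluster was 238 CPM in PBM and 215 CPM in Control, and in the Ace-led cluster 206 and 138 CPM. The class held different clusters in each library, and the part of this makeup in its values was not tested. In B cell-like cells 1 was higher, Tapbpl, a peptide editor, with 15 Control UMIs (0.81, 0.08 to 1.65).

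The 10 immunoproteasome and proteasome genes moved less. In T cell-like cells 1 was lower, Pomp, a proteasome assembly factor, with 204 CPM in PBM and 318 CPM in Control (-0.64), and the list median was -0.39. In the other 3 classes none passed 1.5-fold, with medians of 0.05 in B, -0.06 in NK and 0.19 in monocyte/macrophage-like cells. Psmb9, an immunoproteasome subunit, had 222 CPM in PBM and 314 CPM in Control T cell-like cells (-0.50). In PBM and Control it was 192 and 196 CPM in the Ly6c2-led cluster and 205 and 202 CPM in the Cd40lg-led cluster. Lower PBM values were seen in the Foxp3-led (357 and 483 CPM) and Cxcr6-led clusters (213 and 339 CPM). Psmb8 had 607 CPM in PBM and 452 CPM in Control monocyte/macrophage-like cells (0.42). It was 835 and 862 CPM in the Ly6i-led cluster and 568 and 519 CPM in the Ace-led cluster. The part of cluster makeup in the class values was not tested.

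Of 18 transcription factors of class I promoters, 0 were higher and 2 lower in T, 1 higher and 7 lower in B, 5 higher and 1 lower in NK, and 7 higher and 1 lower in monocyte/macrophage-like cells. Irf8 had 32.8 CPM in PBM and 196 CPM in Control T cell-like cells (-2.58) and 349 CPM in PBM and 806 CPM in Control NK cell-like cells (-1.21). Of 11 interferon input genes, 2 were higher and 3 lower in T, 1 higher and 5 lower in B, 4 higher and 1 lower in NK, and 1 higher and 1 lower in monocyte/macrophage-like cells. Ifng, interferon gamma itself, had 14.2 CPM in PBM and 391 CPM in Control T cell-like cells (-4.78). The Control class holds most of the Ifng-led cluster (17 PBM and 1079 Control cells), with Ifng at 692 CPM in Control. In the T clusters compared between libraries, Ifng in PBM and Control was 6.98 and 47.9 CPM (Ly6c2-led), 1.70 and 14.3 (Foxp3-led), 0.88 and 4.60 (Cd40lg-led), and 10.0 and 127 (Cxcr6-led). Irf9, a factor of the type I interferon response, had 65.6 CPM in PBM and 30.9 CPM in Control T cell-like cells (1.09). Irf9 was also higher in PBM B (1.40) and NK cell-like cells (1.26).

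Of 16 measured receptors that bind class I, 0 were higher and 14 lower in PBM T cell-like cells. Klrc1, which encodes the Qa-1 receptor NKG2A, had 10.4 CPM in PBM and 219 CPM in Control T cell-like cells (-4.40), and its partner Klrd1 82.9 CPM in PBM and 429 CPM in Control (-2.37). The T class leaves out the Dapl1-led cluster (2645 PBM cells). It holds the Ifng-led cluster (17 PBM and 1079 Control cells), with Klrc1 among its leading genes. Cd8a, on this list, had 89.0 CPM in PBM and 419 CPM in Control T cell-like cells. In the CD8 gate it had 334 CPM in PBM and 695 CPM in Control, and in the Ly6c2-led cluster 240 CPM in PBM and 128 CPM in Control. The part of this makeup in the counts was not tested. In NK cell-like cells 8 of 16 were higher and 3 lower, with Klrc2 (NKG2C) at 126 CPM in PBM and 42.9 CPM in Control (1.56). The CD8 coreceptor gene Cd8b1 had 120 CPM in PBM and 12.9 CPM in Control NK cell-like cells (3.22) and 127 CPM in PBM and 12.1 CPM in Control monocyte/macrophage-like cells (3.39), beside the T cell markers given above. The counts were 6 higher and 3 lower of 11 in B and 4 higher and 10 lower of 15 in monocyte/macrophage-like cells.

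Other class I-like genes split. Of 9 measured in T cell-like cells, 4 were higher and 3 lower. H2-T24 had 10.07 CPM in PBM and 2.11 CPM in Control (2.25), and Hfe, a regulator of iron uptake, had 4 UMIs in PBM and 69 UMIs in Control (-4.95). Macrophage markers in these cells, given above, were also lower in PBM, and the part of free RNA was not tested. The counts were 2 higher and 2 lower of 5 in B, 4 and 1 of 6 in NK, and 3 and 4 of 9 in monocyte/macrophage-like cells. All 5 class II genes were higher in PBM T and NK cell-like cells, with H2-Aa at 554 CPM in PBM and 206 CPM in Control T cell-like cells (1.43), where B cell markers were also higher. In B cell-like cells 0 of the 5 passed 1.5-fold, and in monocyte/macrophage-like cells 1, Ciita, the class II transactivator, at 101 CPM in PBM and 33.9 CPM in Control (1.57). B cell markers in these myeloid cells summed to 1418 CPM in PBM and 15.1 CPM in Control, and PBM B cell-like cells had Ciita at 252 CPM. Ciita was 138 and 95.2 CPM in the Ly6i-led cluster and 55.9 and 27.5 CPM in the Ace-led cluster. The part of free RNA and makeup in the class value was not tested.

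Levels were last compared across 32 cluster-by-library groups with at least 50 cells, as a description, since groups share libraries and depth. On log2(CPM + 1), H2-K1 went most closely with H2-Q7 (Pearson r 0.93) and H2-T22 (0.88), and less with H2-D1 (0.68). H2-D1 went more closely with B2m (0.79) than with H2-Q7 (0.50). Nlrc5 had r of 0.53 with the heavy-chain sum. Of 5332 genes, those most like the heavy-chain sum were Sirt7 (0.84), Vps28 (0.83), Rab8a (0.82), Pbxip1 (0.82) and Nmi (0.81). Those most like Nlrc5 were Nrip1 (0.74), Fyn (0.73), Tapbpl (0.71), Stat5b (0.69) and Unc13d (0.69). The genes most like B2m were Patl2 (0.89), the proteasome activator Psme2 (0.83), Psmb8 (0.81), Aup1 (0.80) and Ubl5 (0.79). In the GENCODE annotation Patl2, at chr2:122120108-122186189 on the minus strand, spans B2m, at chr2:122147686-122153083 on the plus strand, and no source used here states how strand was counted, so reads of the pair cannot be told apart.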

How the data were processed

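Each library was a 10x 3′ gene expression library of pooled, CD45-sorted cells. The deposited values are whole-number UMI counts per gene and cell. The submitters' processing notes name Cell Ranger 7.2.0 and mm10, while the deposited matrix header names PISA 0.12; no source used here says how the tools were combined. Barcodes with under 500 UMIs, under 200 genes or over 10% mitochondrial UMIs were removed, and doublets (899 in PBM, 128 in Control) were called with scanpy 1.11.5. Clusters came from 2000 variable genes, 30 components and Leiden resolution 1, and were named from marker lists. The 9 genes and other genes with class I-type H2 names were left out of the clustering. Mitochondrial, ribosomal, histone, antigen receptor segment and cell cycle genes were left out too. Counts were summed per class and library and given as counts per 1000000 UMIs (CPM). Level intervals are exact Poisson, intervals of PBM over Control are exact conditional binomial, and those of ratios between genes are log-scale Wald intervals, all at 95% and covering counting error only. Coverage of the PBM over Control intervals was checked on simulated Poisson counts only. These had no spread between cells or mice, so the check covers counting error alone, and the Wald intervals were not checked. All genes with at least 20 UMIs over both libraries gave the background. With 1 library per group, no test was made.

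The named genes were the 9 members, the list genes furthest from 0 with at least 50 UMIs, at most 4 a list, and the 5 genes most like each pattern with at least 20 CPM on average. Some genes are named outside this rule, chosen after their values were seen. They are Ifit3, Ifng, Tap1, Psmb8, Psmb9 and Ciita in single clusters, Cd8a in T cells and Psmb8 in Sparc-led cells. The members and lists were chosen with earlier results of these data known. Library totals were 86159897 UMIs in PBM and 104673228 UMIs in Control. Free RNA was estimated from the level of other classes' markers in a class relative to the library. Alternatives changed the denominator (edgeR 4.0.16 TMM factors among them), doublets, clustering, thinning, free RNA and gates. A result for 1 list gene is not reported here.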

Additional observations from a re-analysis of the deposited data

Results flagged for a closer look

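For 6 quantities the log2 ratio of PBM over Control had opposite signs in 2 classes of the same libraries, with both counting intervals clear of 0. The difference between classes was not tested, since each group is 1 library. For H2-K1 the gap was 0.74, between 0.56 in monocyte/macrophage-like and -0.19 in T cell-like cells. For H2-D1 it was 0.79, between 0.37 in NK cell-like and -0.42 in T cell-like cells. For H2-Q6 it was 1.95, between 1.21 in monocyte/macrophage-like and -0.74 in T cell-like cells. For H2-Q7 it was 1.39, between 0.85 in monocyte/macrophage-like and -0.53 in T cell-like cells. For B2m it was 0.58, between 0.13 in monocyte/macrophage-like and -0.45 in T cell-like cells. For the heavy-chain sum it was 0.79, between 0.51 in monocyte/macrophage-like and -0.29 in T cell-like cells. The B2m ratio of monocyte/macrophage-like cells ran from -0.09 to 0.25 under 11 other settings and kept its direction in 8, so its sign is not settled.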

How the results depend on the processing

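No paired analysis was possible because each group is 1 library. In the 4 classes the heavy-chain sum changed sign under none of the settings that could be run. Marker gates gave no value for monocyte/macrophage-like cells, as under 50 cells passed them in a library. In the CD8 gate (-0.11) its direction turned without mitochondrial and ribosomal genes, at 8149 in PBM and 7243 in Control per 1000000 remaining UMIs. In T cell-like cells (-0.29) it was -0.10 with TMM factors, -0.049 without mitochondrial and ribosomal genes, -0.31 with doublets kept, -0.32 and -0.27 at Leiden resolutions 0.5 and 2.0, -0.39 as a mean of per-cell CPM, -0.39 in cells thinned to 1000 UMIs, -0.36 with free RNA subtracted and -0.48 with marker gates. Alternatives chosen after seeing the data gave -0.32 with the Dapl1-led cluster added and -0.54 without the Ifng-led cluster. The count of T members lower past 1.5-fold (1) was 0 with TMM factors, 0 without mitochondrial and ribosomal genes, 3 as a mean of per-cell CPM, 2 in thinned cells, 3 with free RNA subtracted, 2 with N1 barcodes only, 4 with marker gates and 5 without the Ifng-led cluster. In B cell-like cells the sum (0.28) was 0.56 with TMM factors, 0.40 without mitochondrial and ribosomal genes, 0.45 at resolution 0.5, 0.34 as a mean, 0.37 thinned and 0.45 with gates; 3 members were higher in thinned cells, and 1 was lower at resolution 0.5 and in thinned cells. In NK cell-like cells the sum (0.48) was 0.32 with TMM factors, 0.45 without mitochondrial and ribosomal genes, 0.42 with doublets, 0.39 as a mean, 0.37 thinned, 0.53 with free RNA subtracted and 0.65 with gates; 2 members were higher with TMM factors, 1 as a mean and 7 with gates. In monocyte/macrophage-like cells the sum (0.51) was 0.28 with TMM factors, 0.56 without mitochondrial and ribosomal genes, 0.45 with doublets, 0.44 at resolution 0.5, 0.36 as a mean and 0.34 thinned, and 2 members were higher with free RNA subtracted. The causes were not tested. Depth limits H2-Q4 and Nlrc5 most: in B cell-like Control cells they had 3 and 11 UMIs.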
